A study of Mus musculus with 2 samples.

Results

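The dystrophin-glycoprotein complex was taken here as 8 genes, Dmd, Utrn, Dag1, Sgca, Sgcb, Sgcd, Dtna and Sspn, of 19938 genes named on the array. They were found as the probe sets whose symbol in the platform's annotation is exactly that of a member, without use of any measured value, and each member had 1 probe set. Primary myoblasts, the dividing progeny of muscle satellite cells, came from hind limb muscles of mice 5 to 6 weeks old with the genotype Rosa-CreER / MLL1 fl/fl, so that every cell of both cultures carried floxed Mll1 alleles and a Cre recombinase, driven from the ubiquitous Rosa26 locus, that needs 4-hydroxytamoxifen to enter the nucleus. Both cultures came from 1 cell line kept in Ham's F10 medium with serum (20%) and FGF (5 ng/ml), which keeps myoblasts dividing. The control culture received 0.01% ethanol for 7 days, and the Mll1 cKO culture (MLL1 KO in the labels) received 500 nM 4-hydroxytamoxifen in 0.01% ethanol for 7 days. The labels give 3 days without drug before harvest, whereas the methods give 2 days. No culture without floxed alleles received the drug, so drug and deletion cannot be told apart. RNA of each culture was hybridized to 1 Affymetrix MoGene 1.0 ST array, and the values are log2 signals after RMA normalization. Differences are given on the log2 scale as Mll1 cKO minus control, so that 1 unit stands for 2-fold. A condition has 1 array, so the spread between cultures is unknown, no difference could be tested, and precision is limited by this number of arrays.

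The complex links the actin cytoskeleton of a muscle fiber to the basement membrane around it. Dystrophin, or its paralog utrophin, binds actin inside the cell and the transmembrane part of dystroglycan, whose extracellular part binds laminin through sugar chains. Sarcoglycans and sarcospan form a subcomplex in the membrane that stabilizes dystroglycan, and dystrobrevins and syntrophins bind dystrophin on the cytoplasmic side. Loss of dystrophin causes Duchenne muscular dystrophy, and loss of a sarcoglycan causes limb-girdle muscular dystrophy. Dystrophin and α-sarcoglycan are known to accumulate as myoblasts differentiate into myotubes, whereas utrophin, dystroglycan and β-sarcoglycan are made in many tissues.

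RefSeq windows upstream of members are shown for Dmd and Sgca, which were higher in the Mll1 cKO array, and for Dag1 and Sgcb, which differed little. The choice was made with these values known, and no link between sequence and values was tested. RefSeq of build GRCm38.p6 gave 10 windows for 7 of the 8 members, and Dtna was not matched. Each window holds the 250 bases before an annotated transcript start, 5′ to 3′ on the strand of the gene, and capitals mark matches of an E-box (CANNTG, which reads the same on both strands), of the MEF2 motif or of the CArG box, the element bound by serum response factor. All 3 motifs were searched on both strands.
Dmd, chrX:82948620-82948869, plus strand: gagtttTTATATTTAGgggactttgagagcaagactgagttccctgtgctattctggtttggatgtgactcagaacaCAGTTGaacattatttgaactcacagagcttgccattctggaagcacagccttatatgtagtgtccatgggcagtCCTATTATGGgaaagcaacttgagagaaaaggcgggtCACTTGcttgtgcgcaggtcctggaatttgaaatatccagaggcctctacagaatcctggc
Sgca, chr11:94976328-94976577, minus strand: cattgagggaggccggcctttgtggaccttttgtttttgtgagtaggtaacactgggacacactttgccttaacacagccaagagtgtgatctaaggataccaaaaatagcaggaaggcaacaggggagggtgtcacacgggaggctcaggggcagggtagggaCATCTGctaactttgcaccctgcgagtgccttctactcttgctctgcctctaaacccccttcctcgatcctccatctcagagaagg
Dag1, chr9:108263959-108264208, minus strand: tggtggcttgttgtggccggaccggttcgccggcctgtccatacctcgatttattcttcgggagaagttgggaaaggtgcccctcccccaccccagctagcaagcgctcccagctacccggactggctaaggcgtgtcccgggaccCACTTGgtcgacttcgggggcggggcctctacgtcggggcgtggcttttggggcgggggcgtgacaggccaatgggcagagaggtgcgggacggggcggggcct
Sgcb, chr5:73647738-73647987, minus strand: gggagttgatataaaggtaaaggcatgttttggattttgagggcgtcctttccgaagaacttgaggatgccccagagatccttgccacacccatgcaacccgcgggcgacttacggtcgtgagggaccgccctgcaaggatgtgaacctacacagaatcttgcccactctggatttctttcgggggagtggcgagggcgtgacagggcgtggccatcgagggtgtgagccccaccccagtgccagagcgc

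The Dmd window lies before the start of the full-length muscle transcript. It holds 2 E-boxes, which begin at positions -173 and -61 from the start, a MEF2 match at position -244 and a CArG match at position -98. Among all 32851 windows of the same length, 66.2% held an E-box, 2.92% held a MEF2 match and 1.47% held a CArG match. The other Dmd window, before a start far downstream from which short dystrophin isoforms are read, held none of the 3 motifs. The Sgca window held 1 E-box, at position -86, and neither of the other motifs. Both Dag1 windows held the same E-box, since they overlap, and the Sgcb window held none of the 3 motifs. The Utrn window had 7 E-boxes, some of which overlap each other, and most of which lie in a stretch rich in CA and TG. The Sgcd window had 2, and 1 of the 2 Sspn windows had 1. In all, 7 of the 10 windows held an E-box and only the first Dmd window held a MEF2 or CArG match. A match describes these letters and is not evidence of binding. Whether the annotated starts are used in myoblasts was not examined, so a window need not be an active promoter.

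**Figure D1:**
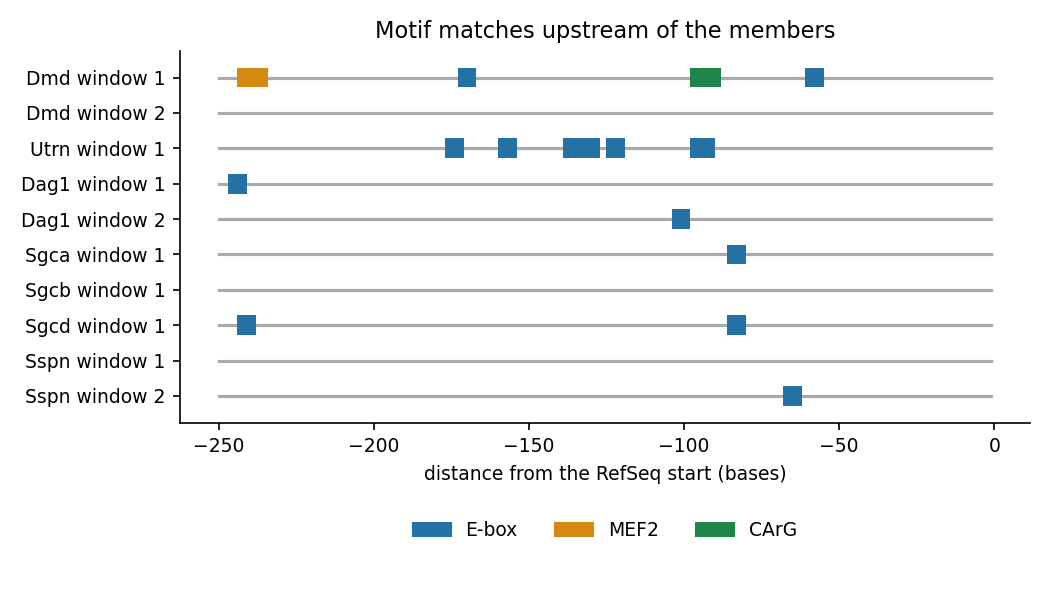
Matches of the E-box (blue), the MEF2 motif (orange) and the CArG box (green) in the 10 upstream windows of 7 members, by distance in bases from the RefSeq start of each transcript. E-boxes lie in 7 windows, and the MEF2 and CArG matches lie in the first Dmd window, which also holds 2 E-boxes.

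Of the 8 members, 3 were higher in the Mll1 cKO array by more than 0.5 and the other 5 lay within 0.2 of 0, against 6.76% and 49.8% of all named genes. Both limits were set after the values were seen. Dtna, Sgca and Dmd were the higher ones, and the difference next to theirs was that of Sspn, at 0.07. In bulk RNA, a change in the number of cells that make a transcript and a change in its amount per cell cannot be told apart. No member passed 2-fold in either direction, against 1.16% of all named genes on the higher side and 0.11% on the lower side. At 1.5-fold, 1 member, Dtna, was higher and none was lower, against 4.86% and 2.01% of all named genes. By any amount 6 members were higher, and 41.6% of all named genes were. The median difference of the members was 0.05 and that of all named genes was -0.05. The mean of the members was 0.25, since it takes in the 3 higher genes.

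**Figure D2:**
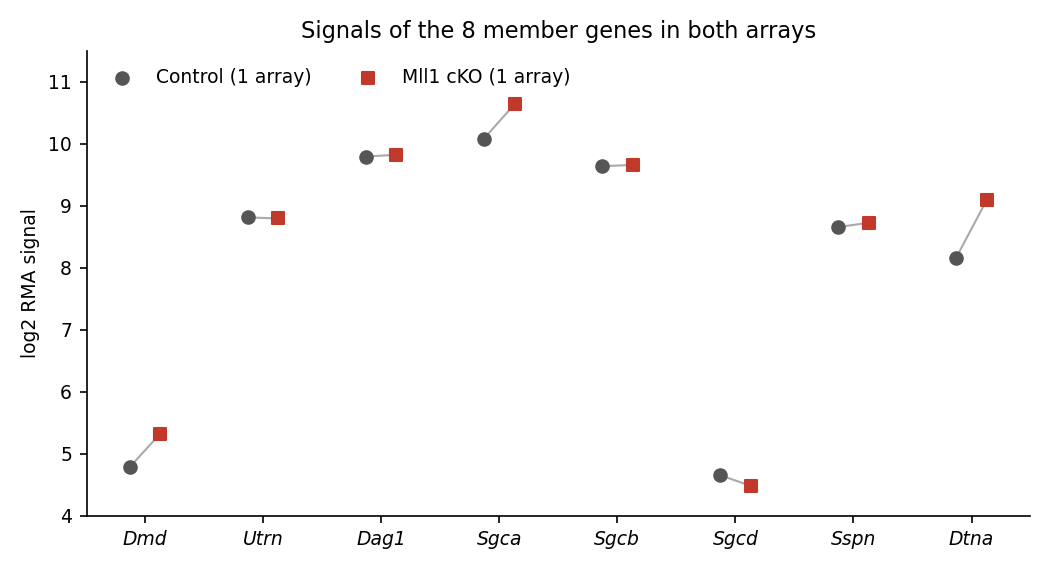
Log2 RMA signal of each member (horizontal axis) in the control array (grey circles) and the Mll1 cKO array (red squares), with 1 array per condition and a line between the values of a gene. The lines of Dtna, Sgca and Dmd climb by 0.93, 0.56 and 0.54, and those of the other 5 genes are nearly flat. Heights of different genes are not levels to be compared, since their probes differ.

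Among the genes inside the cell that bind actin, dystrophin had the higher signal in the Mll1 cKO array and its paralog utrophin was nearly equal in both. Dmd, which encodes dystrophin, had log2 signals of 4.78 (control) and 5.32 (Mll1 cKO). It was thus 1.45-fold higher, with a difference of 0.54, and 5.82% of all named genes had a difference as high or higher. Both signals of its probe set (10600604) were weak. Of 13 markers of endothelial and immune cells, which a myoblast culture should lack (all listed ones except Cd68, left out after its value was seen), the signals ran from 3.48 to 5.56 in the control array and from 3.24 to 5.28 in the Mll1 cKO array. The Dmd signal lay inside that range in the control array and just above it in the Mll1 cKO array. None of these 13 markers was higher in the Mll1 cKO array and 12 were lower, a count that depends on leaving out Cd68. Cd68 was higher, with signals of 6.08 (control) and 7.47 (Mll1 cKO). With it kept, the Mll1 cKO range would take in the Dmd signal. Genes as dim as Dmd were lower in general, with a median difference of -0.23 over the 1993 genes of similar mean signal (the fourth of 10 groups of equal size), and 3.16% of them had a difference as high as that of Dmd or higher. With the trend of the differences on signal removed, the difference of Dmd was 0.74. The probe set gives 1 summary for the gene, so that full-length dystrophin and the short isoforms were not told apart.

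Utrn, which encodes utrophin, had log2 signals of 8.81 (control) and 8.79 (Mll1 cKO), for a difference of -0.02. No direction can be given, since subtraction of the median difference of the probe sets with a single symbol made it 0.03. Drp2, the gene of a further protein of the dystrophin family, known from Schwann cells, had strong signals of 10.00 and 9.97 and a difference of -0.03. Of 6 measured markers of Schwann cells none was over 2-fold different, and their median difference was -0.11, with control signals from 4.71 to 6.68 and Mll1 cKO signals from 4.20 to 6.79. Of the 6, 2 were higher by any amount and 3 were lower. Egr2, for a transcription factor of myelination, had the highest difference, 0.82 (1.77-fold), with signals of 5.68 and 6.50. Gfap had the lowest, -0.52.

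Dag1, which encodes both subunits of dystroglycan, had log2 signals of 9.79 (control) and 9.82 (Mll1 cKO), for a difference of 0.03. Its probe set (10596893) was thus among the bright ones, and its value in the 2 arrays was nearly equal. After removal of the trend on signal or a further quantile normalization its difference was 0.0085 or 0.0012.

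Of the 4 genes of the sarcoglycan and sarcospan subcomplex, Sgca was higher in the Mll1 cKO array and the other 3 differed by less than 0.2. Sgca, which encodes α-sarcoglycan, the form found in striated muscle, had log2 signals of 10.08 (control) and 10.64 (Mll1 cKO). It was 1.47-fold higher, with a difference of 0.56, and 5.42% of all named genes had a difference as high or higher. Its signals (probe set 10390090) were strong, and among the 1994 brightest genes 4.06% had such a difference or a higher one. Sgcb, which encodes β-sarcoglycan, the core partner of δ-sarcoglycan in assembly of the subcomplex, had signals of 9.64 and 9.66 and a difference of 0.02. Its sign turned with the trend on signal removed and after quantile normalization. Sgcd, which encodes δ-sarcoglycan, had the weak signals of 4.65 and 4.48, inside the range of the endothelial and immune markers in both arrays. Its difference of -0.17 was close to the median of -0.21 for genes of similar signal, and it became 0.04 with the trend on signal removed, so that no direction can be given. Sspn, which encodes the tetraspan protein sarcospan, had signals of 8.66 and 8.72 and a difference of 0.07. The α-sarcoglycan gene was therefore the only measured gene of these 4 with a difference over 0.5.

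Dtna, which encodes α-dystrobrevin, the cytoplasmic partner of dystrophin that recruits syntrophins, had log2 signals of 8.16 (control) and 9.10 (Mll1 cKO). This difference of 0.93 was the largest of the 8 members, at 1.91-fold, and 1.44% of all named genes had a difference as high or higher. Among the 1994 genes of similar mean signal, 2.06% had such a difference or a higher one, and 1.60% were over 2-fold higher. Under the scaling alternatives it lay between 0.88 and 0.99, always below 2-fold. The Dtna transcripts encode several isoforms, which 1 probe set (10454254) does not separate. In the plot of all named genes, Dtna lies under the upper dashed line. Sgca and Dmd lie in the upper part of the genes with their signals, and the other 5 members in the middle.

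**Figure D3:**
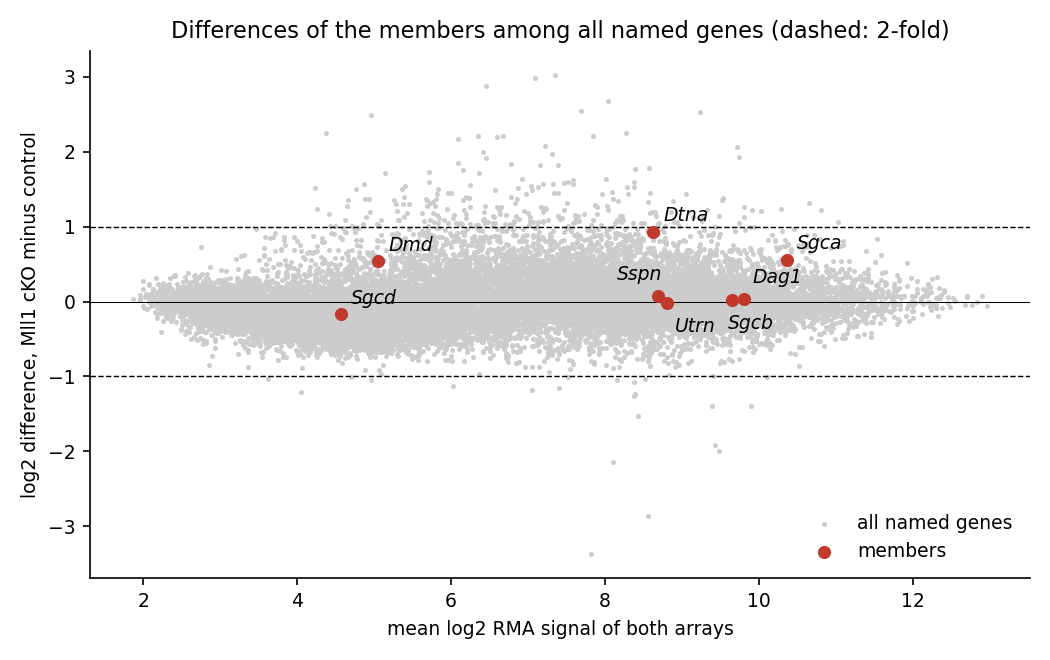
Log2 difference (Mll1 cKO minus control) against mean log2 signal for the 19938 named genes (grey) and the 8 members (red), with dashed lines at a 2-fold difference. Dtna lies at 0.93, Sgca at 0.56 and Dmd at 0.54, and no member passes a dashed line.

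Other subunits and direct partners of the complex differed by less than the 3 higher members. Of 10 such genes analysed here none was over 1.5-fold different, 5 lay above 0 and 5 below it, and the median difference was 0.0041. Dtnb, which encodes β-dystrobrevin, the paralog of the product of Dtna, had log2 signals of 8.48 (control) and 8.77 (Mll1 cKO), for a difference of 0.29. The β-syntrophin genes Sntb1 and Sntb2, whose proteins are adaptors for signalling molecules, had differences of 0.12 and 0.17. Cav3, for caveolin-3 of muscle caveolae, which binds dystroglycan, had weak signals of 5.64 and 5.94 and a difference of 0.30. Sgce, which encodes ε-sarcoglycan, the broadly expressed relative of α-sarcoglycan, had signals of 9.74 and 9.78 and a difference of 0.04. The weak probe sets of Nos1, for neuronal nitric oxide synthase, of Sgcz, for ζ-sarcoglycan, and of the γ-syntrophin genes Sntg1 and Sntg2 had signals below 5.3 and differences from -0.19 to -0.07.

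Among enzymes that build the laminin-binding sugar chains of dystroglycan, only Dpm2 differed by as much as Sgca and Dmd. Of 14 such genes analysed here none was over 1.5-fold different, 8 lay above 0 and 6 below it, and the median difference was 0.11. The highest difference was that of Dpm2, a subunit of the dolichol-phosphate mannose synthase that feeds O-mannosylation, with signals of 8.87 and 9.44 and a difference of 0.57. The lowest was that of Dpm3, another subunit of the same enzyme, at -0.22. Pomt1 and Pomt2, whose products add the first mannose, had differences of 0.14 and 0.25.

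Extracellular ligands of dystroglycan lay on both sides of 0. Of 12 measured genes none was over 2-fold different, 5 lay above 0 and 7 below it, and the median of -0.08 turned to 0.03 with the trend on signal removed. Bgn, for biglycan, a proteoglycan of the matrix that binds the complex, had log2 signals of 8.31 (control) and 9.24 (Mll1 cKO), a difference of 0.93. Agrn, for agrin, which clusters acetylcholine receptors at the synapse, had signals of 7.89 and 8.56 and a difference of 0.68. Lamc1, for the γ1 chain shared by most laminins, differed the other way, from 8.95 to 8.26, by -0.69. Lama2, for the α2 chain of the laminin of muscle basement membrane, had signals of 9.06 and 8.83 and a difference of -0.24.

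Other genes that tie the membrane to the cytoskeleton or matrix had a median difference of -0.05, as had all named genes. Of 22 genes 1 passed 2-fold, on the higher side, and 7 lay above 0 and 15 below it. Cavin4, for a caveolar coat protein of muscle, had signals of 7.94 and 8.99 and was 2.07-fold higher, a difference of 1.05 that fell below 2-fold after quantile normalization (0.980) and without the trend on signal (0.998). Xirp1, for an actin-binding protein of the myotendinous junction, and Dysf, for the membrane repair protein dysferlin, had differences of 0.84 and 0.81. Itga7, for the α7 integrin, the other laminin receptor of muscle, had signals of 10.06 and 9.66 and a difference of -0.39, and Itgb1, for its β1 partner, had a difference of -0.12. Anxa6, for annexin A6, has 2 probe sets that disagree in size, with differences of -0.15 at a strong signal and -0.64 at a weak one.

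**Figure D4:**
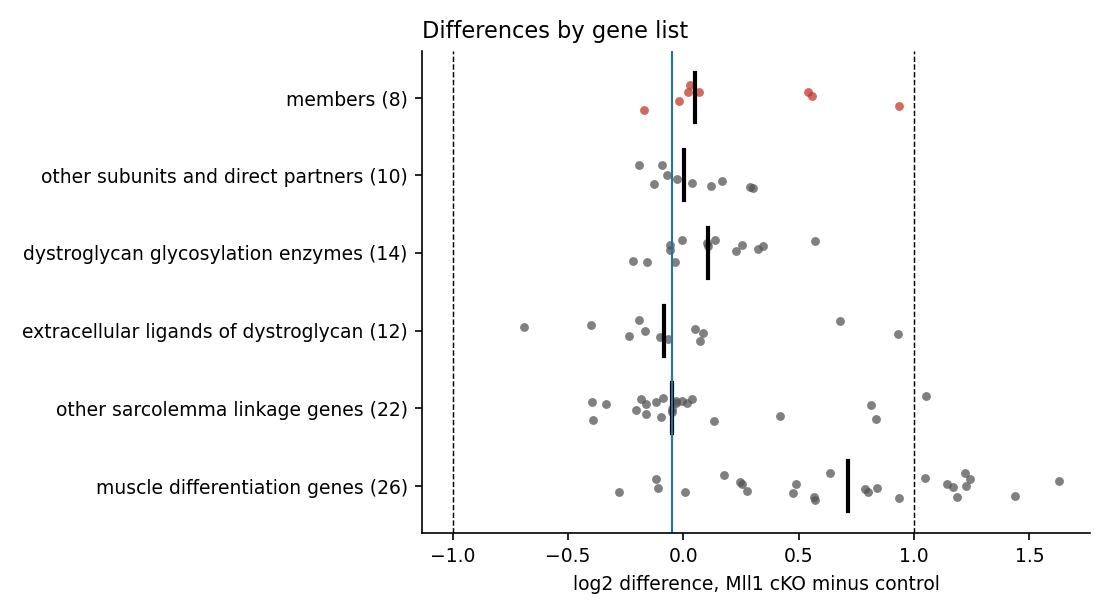
Log2 difference (Mll1 cKO minus control) of each gene of the members (red) and of 5 further lists (grey), with the number of measured genes in brackets, the median of a list as a black bar, the median of all named genes as a blue line and 2-fold as dashed lines. Points are moved at random along the vertical axis. The median is 0.05 for the members and 0.71 for muscle differentiation genes.

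Most genes of muscle differentiation were higher beside the 3 higher members. Of 26 measured genes 9 passed 2-fold, all on the higher side, against 1.16% of all named genes. By any amount 23 were higher, against 41.6% of all named genes, and the median difference was 0.71. The 3 lower ones were Tnni2 (-0.28), Mymx (-0.12) and Ckm (-0.11). The 9 were Actn2, Mymk, Klhl41, Casq2, Tnni1, Myl1, Myh1, Mef2c and Smpx, with differences from 1.05 to 1.63, of which Actn2, at 1.05, fell below 2-fold under the same alternatives as Cavin4 (0.963 and 0.980). Myog, for the differentiation factor myogenin, had signals of 7.30 and 7.94 and a difference of 0.64. The paper describes myogenin mRNA as unchanged, on the basis of these arrays and of quantitative PCR. Several genes of the list were picked because they were already known to be higher in these arrays. The list therefore gives no independent support for a direction. Its part in the values of Dtna, Sgca and Dmd was not tested.

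Myoblast markers were strong in the control array, and 2 of 11, Myf5 and Fgfr4, were over 2-fold lower in the Mll1 cKO array, with differences of -3.37 and -1.23. The 11 markers had control signals from 8.10 to 12.15, with a median of 10.26, and Mll1 cKO signals from 6.14 to 12.27, with a median of 10.02. Des and Itga7 are in this list and in the list of other membrane linkage genes. None of 10 fibroblast markers was over 2-fold different, with control signals from 2.58 to 8.12 and Mll1 cKO signals from 2.39 to 7.67, and their median difference was -0.21. None of 7 smooth muscle markers passed either, with a median difference of -0.10, and of these Acta2 and Des, which myoblasts also express, were strong. Endothelial markers had a median difference of -0.22 and immune cell markers of -0.23, and among both lists only Cd68, for a lysosomal protein, was over 2-fold different, with signals of 6.08 and 7.47. The part of these cell types in the members' values was not tested. Kmt2a, which encodes MLL1, had signals of 9.44 and 9.66, a difference of 0.22, from 1 summary over the transcript, which does not isolate the floxed exons and checks nothing about the deletion.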

How the data were processed

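Total RNA of 1 control and 1 Mll1 cKO myoblast culture was hybridized to Affymetrix MoGene 1.0 ST arrays. RMA normalization was done by the authors with a Bioconductor package, and the deposited values are log2 signals of 35557 probe sets. Neither the version nor the genome build is given in the sources used here. RMA sets both arrays to 1 distribution, so that a change common to most genes would not be seen, and its summary of probes can compress differences at weak signals.

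Symbols came from the annotation of the platform, checked by gene number against RefSeq of GRCm38.p6, which changed none. A single symbol was given for 21789 probe sets (19938 genes), several symbols for 1621 and no entry for 12147, and only the first kind was used. Probe sets of a gene were averaged. The cut-off of 2-fold followed the study's methods. The members and lists were chosen with earlier results of these data known, and some listed genes are not reported here. Values were named for every member, the measured subunits and partners, genes over 2-fold in other lists, the extremes of a pathway list with none, Kmt2a and Myog, and cell type markers were given by range and median. Pomt1, Pomt2, Lama2, Agrn, Itga7, Itgb1, Xirp1, Dysf, Anxa6, Egr2, Gfap, Acta2, Des, Tnni2, Mymx and Ckm were chosen after their values were seen. Upstream windows and their sequences came from RefSeq.

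Alternatives were a cut-off of 1.5-fold or of 3-fold, a minimum signal of 7 in the higher array or 6 on average, the probe set with the largest difference or the highest signal, the mean of a list, centring, removal of a lowess trend (span 0.3) and quantile normalization. Calls were tested on simulated data for 19938 genes, with a shift of 2 log2 units in 200 of them. That shift is larger than the difference of any member, and the simulated noise was smaller than the spread of the real differences. Recovery was therefore near certain beforehand, and the test says nothing about differences of the members' size. Python 3.11.15 was used with numpy 2.4.6, pandas 2.3.3, statsmodels 0.14.6 and matplotlib 3.10.9.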

Additional observations from a re-analysis of the deposited data

How the results depend on the processing

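Of the 88 values recomputed under an alternative, 73 kept their sign and moved by less than 0.1 on the log2 scale or, for counts, by less than 1.5 times. Part of these 73 could not have moved, so their number overstates stability. Each member has 1 probe set, so the choice of probe set cannot change its value. Member counts of 0 at 2-fold must also stay 0 at 3-fold or with a minimum signal. At the 1.5-fold cut-off the count of members over the cut-off on the higher side was 1. The mean of the members was 0.25, and with a mean signal over 6 the median of the other subunits and partners was 0.12. Signs turned for values within 0.2 of 0. The median of all named genes, -0.0488, became 0.0032 after centring and 0.0048 with the trend on signal removed. Centring gave 0.0011 for the other membrane linkage genes, whose mean was 0.0449, and 0.0347 for Utrn. Removal of the trend on signal gave 0.0278 for the extracellular ligands, -0.0032 for Sgcb and 0.0352 for Sgcd, and quantile normalization gave -0.0134 for the other subunits and partners and -0.0185 for Sgcb. With a mean signal over 6 the ligands had a median of 0.0603. The cause of these moves was not tested. Dtna, Sgca and Dmd were higher as deposited and after centring, removal of the trend on signal and quantile normalization. Their differences ran from 0.88 to 0.99, 0.54 to 0.61 and 0.54 to 0.74. These rescalings shifted values by less than those differences, so the kept sign says little about stability. A minimum signal of 6 on average or 7 in the higher array leaves Dmd out. With 1 array per condition no replicate could be left out, and weak signals limit what can be said of Dmd and Sgcd. No paired analysis was possible because each group has 1 sample.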
